A study of Mus musculus with 8 samples.

Results

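The genes described here encode subunits of the mitochondrial respiratory chain and of ATP synthase. Members were the rows of the authors' normalised table whose symbols match the naming pattern of complex I (Nduf), complex II (Sdh), complex III (Uqcr and Cyc1), cytochrome c (Cycs), complex IV (Cox and a digit from 4 to 8, followed by a letter from a to c), complex V (Atp5) or the protein-coding genes of mitochondrial DNA (mt-). The pattern found 98 of the table's 13751 genes, of which 85 lie in the nucleus and 13 in mitochondrial DNA. Of the 85, 5 carry pseudogene names (Atp5pb-ps, Cox5b-ps, Cox7c-ps1, Ndufa12-ps and Ndufs5-ps) and are kept apart, which leaves 80 nuclear members. Ndufa4 and Cox7a2l were placed with complex IV. Ndufb1-ps and Ndufb4c were kept in complex I, although the GENCODE M21 annotation lists the first as a non-coding transcript and the second as a pseudogene.

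RNA came from naive CD4 T cells of wild-type C57BL/6 mice, sorted from peripheral lymph nodes and then activated for 20 h by coated anti-CD3 and anti-CD28, each at 4 µg/mL. Control and FAC cultures shared mouse strain, sorting, activation and medium, and differed in the iron supplement of the FAC cultures, whose dose and full name the labels do not give. Each of 4 mice gave 1 control and 1 FAC culture, so there were 8 libraries, 4 in each group. The comparison of FAC with control shows how these genes' mRNA levels stood after iron was added during activation.

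Complexes I and II pass electrons from NADH and succinate to ubiquinone, complex III passes them on to cytochrome c, and complex IV hands them to oxygen, while ATP synthase, complex V, uses the resulting proton gradient. Complexes I, III, IV and V combine subunits imported from the cytosol with subunits made inside mitochondria, whereas complex II is wholly encoded in the nucleus. Electrons travel through iron-sulphur clusters and haem groups held by a minority of subunits, and activated T cells expand this machinery as they leave the resting state.

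Library totals ran from 25410267 to 37350609 counts, and all 98 members passed the filter on low counts that left 13378 genes to test. Levels of single genes are given as CPM, counts scaled to a common library total in a way that also corrects for library composition. Levels across genes are given as TPM, which takes transcript length into account. A log2 change is FAC over control, and a gene was called at an adjusted p under 0.05 in edgeR's quasi-likelihood test with Benjamini-Hochberg adjustment over all tested genes. The 6 CD4 T cell markers summed to 2032 to 2113 CPM in control and 2035 to 2096 CPM in FAC libraries. Those of other lineages were low: CD8 T cell markers summed to at most 10.9 CPM, myeloid markers to at most 28.2 CPM, NK cell markers to at most 1.79 CPM, B cell markers to at most 0.379 CPM and erythroid markers to at most 4.12 CPM. CPM and TPM are relative to all RNA of a culture, so fewer cells of a type and less RNA per cell cannot be told apart.

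The nuclear genes of the respiratory chain had a median log2 change slightly below 0 with FAC in every complex, and nearly none of these differences passed the test. 1 member of 98 was called, Atp5l, which encodes subunit g of ATP synthase, and it fell. Over all tested genes 438 were called (3.27%), 291 of them higher (2.18%) and 147 lower (1.1%), and 1 of 98 is not above these shares. Of the 80 nuclear members, 76 had a log2 change below 0 and 4 above, with a median of -0.077. Over all tested genes 50.4% lay below 0 and the median was -0.0014. The 4 above 0 were Cox6b2, Ndufs7, Ndufs8 and Ndufa7. Of the 13 mitochondrial members, none was called by edgeR, with the filter on low counts and fitted on the group alone, or by DESeq2. In that edgeR fit 4 had an unadjusted p under 0.05, beside 18.4% of all tested genes. Among these 13, 10 lay above 0 and the median was 0.15.

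**Figure D1:**
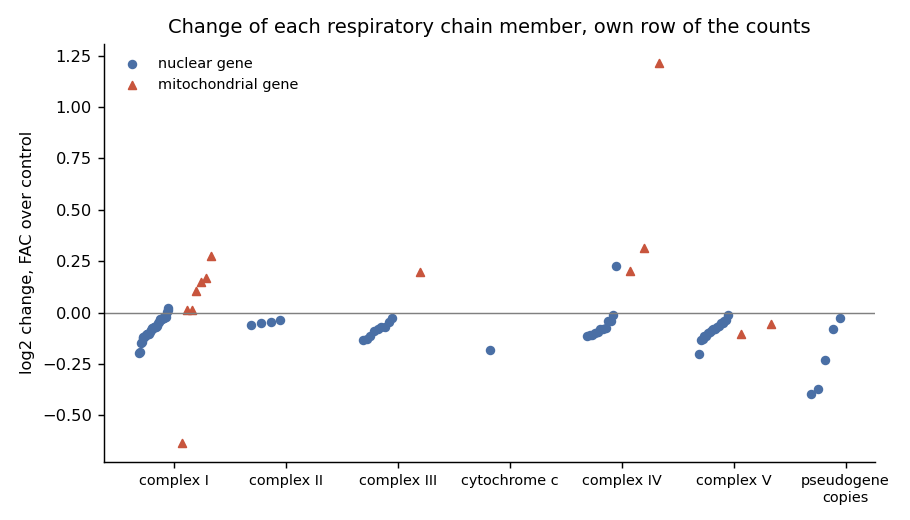
Each point is the log2 change (FAC over control, vertical axis) of 1 member from its own row of the count table, grouped by complex on the horizontal axis; circles are nuclear genes and triangles genes of mitochondrial DNA. The 80 nuclear members lie between -0.20 (Atp5l) and 0.021 (Ndufs7), 76 of them below 0, apart from Cox6b2. That gene lies at 0.23 and has a control mean of only 0.335 CPM. The 5 members with pseudogene names have their own column and lie between -0.40 (Cox7c-ps1) and -0.025 (Cox5b-ps). Mitochondrial members spread from -0.63 (mt-Nd3) to 1.21 (mt-Co3).

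The nuclear members were measured with small errors. The median SE of their log2 change was 0.049, against 0.081 over all tested genes, and for 79 of the 80 the 95% interval of the change lay within 0.5 of 0 on the log2 scale, the exception being Cox6b2. Before adjustment, 22 of the 80 had p under 0.05 and all 22 were below 0, while of all tested genes 18.4% had such a p, 8.14% lower and 10.3% higher. The 4 FAC libraries lay wholly below the 4 control libraries for 17 of the 80 and wholly above them for none, beside 4.89% and 6.17% of all tested genes (11.1% together). In 29 of the 80 the FAC culture was below the control culture of the same mouse in all 4 mice and in none above it, beside 15.4% and 14.7% of all tested genes (30.2% together). Mice differed: the median over nuclear members was -0.087, -0.14, -0.069 and -0.0012 in mice 1 to 4, which is near 0 in mouse 4. With the mouse as a replicate block, which models the pairing of cultures, 4 members were called instead of 1 and 919 of all genes (6.87%), 4.07% higher and 2.8% lower. These 4 were Atp5l, Cycs and mt-Nd3, lower, and mt-Cytb, higher. DESeq2 called 5 members, all lower: Atp5l, Atp5c1, Cycs, Cyc1 and Uqcrfs1. Of the 13886 genes with an adjusted p in DESeq2, it called 738 (5.31%), 3.16% higher and 2.15% lower.

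Summed over members, nuclear mRNA amounted to 22460.4, 22948, 22288 and 22338 TPM in control mice 1 to 4 and 21359, 21782, 21479 and 22265 TPM in FAC mice 1 to 4. FAC mice 1 to 3 lay below every control library and FAC mouse 4 lay just under the lowest of them. Complex V gave the largest nuclear sum, 8761 to 9047 TPM in controls, followed by complex I (5708 to 5967), complex IV (4131 to 4338), complex III (2679.8 to 2741) and complex II (612 to 644), and the ranges of neighbours in this order did not overlap. The order was the same in FAC libraries. Atp5b, the catalytic beta subunit of ATP synthase, was the most abundant nuclear member with 1668 ± 40.4 TPM in controls (SD, n = 4), and Cox6b2, an isoform known from testis, the least with 1.58 ± 0.47 TPM.

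Complex I, the NADH dehydrogenase, has 37 nuclear members here. None was called by edgeR or DESeq2, and 10 had an unadjusted p under 0.05, beside 18.4% of all tested genes. Among the 37 nuclear members of complex I, 34 lay below 0 and the median was -0.070. Its 7 nuclear core subunits of the matrix arm, which carry out electron transfer from NADH, had a median of -0.025, and its 30 accessory subunits one of -0.073. Ndufs1, the large iron-sulphur subunit, stood at 111, 104, 100.2 and 98.8 CPM in control mice 1 to 4 and 108, 97.8, 96.5 and 106 CPM in FAC mice 1 to 4. The groups overlapped, and the log2 change was -0.023 (SE 0.050) with a 95% interval of -0.13 to 0.085. At the ends of the nuclear members of the complex stood Ndufb4c at -0.20 (SE 0.080, edgeR adjusted p = 0.206) and Ndufs7, another iron-sulphur subunit, at 0.021 (SE 0.049, edgeR adjusted p = 0.862). Ndufb4c is listed as a pseudogene and is identical to Ndufb4 over 390 aligned bases, so reads within that stretch cannot be assigned by sequence. Ndufv1 and Ndufv2, which with Ndufs1 form the NADH-oxidising tip, had changes of -0.094 (SE 0.040) and -0.11 (SE 0.038), but neither passed (edgeR adjusted p = 0.236 and 0.131). FAC libraries lay wholly below control libraries in both genes, and in 4.89% of all tested genes.

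In complex I the accessory gene Ndufa9 differed between mice far more than between treatments, an observation made after its values were seen. It stood at 85.6, 132, 78 and 117 CPM in control mice 1 to 4 and 80.8, 118, 78.5 and 119 CPM in FAC mice 1 to 4. Mice 2 and 4 were high and mice 1 and 3 low in both groups, with no overlap between these pairs of mice. TPM showed the same order, 96.3, 141, 87.1 and 130.4 in control and 92.1, 133, 87.8 and 133 in FAC mice 1 to 4. The FAC change was -0.064 (SE 0.17, edgeR adjusted p = 0.877), with an SE above the nuclear median. The source of the difference between mice was not tested.

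Complex II, succinate dehydrogenase, has 4 members. None was called by edgeR or DESeq2 and none had an unadjusted p under 0.05. The flavoprotein gene Sdha had a change of -0.037 (SE 0.040), the iron-sulphur subunit gene Sdhb of -0.061 (SE 0.048), and the membrane anchors with the haem group, Sdhc and Sdhd, of -0.053 (SE 0.043) and -0.047 (SE 0.039). Control and FAC libraries overlapped in all 4 genes, and all 4 intervals lay within 0.5 of 0.

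Complex III, the cytochrome bc1 complex, has 9 nuclear members, all below 0, with a median of -0.079. In edgeR none was called, DESeq2 called 2, and 3 had an unadjusted p under 0.05 in edgeR, beside 18.4% of all tested genes. Uqcrfs1, the Rieske iron-sulphur protein, stood at 147, 144, 141 and 144 CPM in control mice 1 to 4 and 125, 132, 129.8 and 139 CPM in FAC mice 1 to 4. Every FAC library lay below every control library, and mice 1 to 4 differed by -0.23, -0.13, -0.12 and -0.047 on the log2 scale. The change of -0.13 (SE 0.039) missed the threshold (edgeR adjusted p = 0.0971, and 0.0504 with the replicate block), whereas DESeq2 called it (adjusted p = 0.0358). Cyc1, the haem protein cytochrome c1, stood at 213, 217, 207 and 212 CPM in control mice 1 to 4 and 188, 197, 195 and 205 CPM in FAC mice 1 to 4. Its groups did not overlap either, and its change of -0.11 (SE 0.036) was likewise called by DESeq2 (adjusted p = 0.0393) but not by edgeR (adjusted p = 0.109). Among its nuclear members, the largest and smallest changes were those of Uqcr11, a small subunit, at -0.13 (SE 0.066) and Uqcrc1, a core protein, at -0.028 (SE 0.037).

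Cycs encodes cytochrome c, the mobile haem protein between complexes III and IV. It stood at 247, 264, 250.2 and 238 CPM in control mice 1 to 4 and 240.0, 223, 218 and 198 CPM in FAC mice 1 to 4. Only FAC mouse 1 reached into the control range, and the FAC culture was below its control in all 4 mice, by -0.042, -0.24, -0.20 and -0.26 on the log2 scale. The change of -0.18 (SE 0.053) did not pass without the block (edgeR adjusted p = 0.0785) and passed with it (edgeR adjusted p = 0.0118). On TPM the difference was smaller, a log2 change of -0.077 (limma adjusted p = 0.408), and FAC mouse 1 was the lowest library there instead of the highest of its group. The effective length of the gene, by which TPM is scaled, ran from 1203 to 1603 bases between libraries, the lowest in FAC mouse 4 and the highest in FAC mouse 1.

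**Figure D2:**
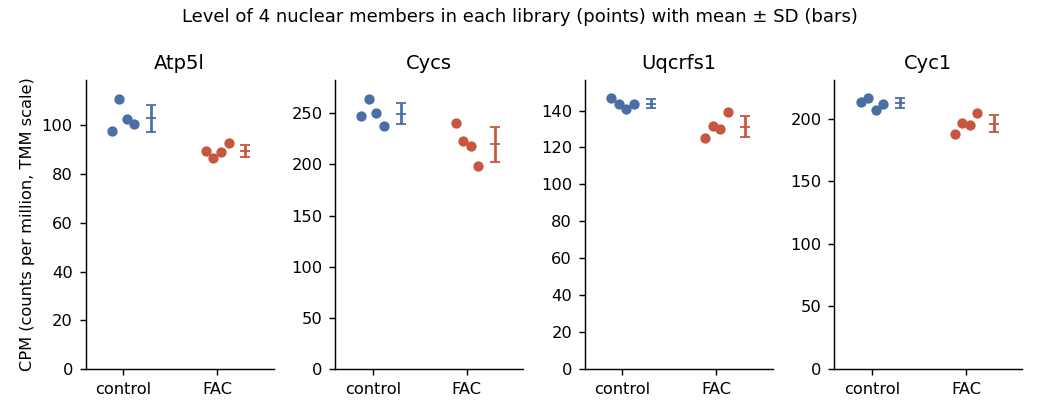
Points are the level of each gene in each library in CPM (vertical axes start at 0; the 4 points of a group are mice 1 to 4 from left to right), and the bar beside them is the mean ± SD of 4 libraries. FAC points lie below all control points for Atp5l, Uqcrfs1 and Cyc1, and 1 FAC point of Cycs reaches into the control range.

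Complex IV, cytochrome c oxidase, has 12 nuclear members, 11 of them below 0, with a median of -0.080. None was called by edgeR or DESeq2, and 3 had an unadjusted p under 0.05, beside 18.4% of all tested genes. Cox8a, a small structural subunit, had the largest negative change at -0.11 (SE 0.049, edgeR adjusted p = 0.236) and Ndufa4 the smallest at -0.013 (SE 0.047, edgeR adjusted p = 0.918). FAC libraries lay wholly below control libraries for Cox6b1, Cox7a2l and Cox7c, and for 4.89% of all tested genes (11.1% apart in either direction). Complex V has 17 nuclear members, all below 0, with a median of -0.082. Atp5j, coupling factor 6 of the stalk, was nearest to 0 at -0.010 (SE 0.047). The catalytic subunit gene Atp5b stood at 1690.3 ± 35.3 CPM in control and 1581 ± 51.2 CPM in FAC libraries (SD, n = 4 each), a change of -0.10 (SE 0.035) with groups apart that did not pass (edgeR adjusted p = 0.162).

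Atp5l (ENSMUSG00000038717), the called member, stood at 97.7, 111, 102 and 101 CPM in control mice 1 to 4 and 89.3, 86.6, 89.2 and 92.7 CPM in FAC mice 1 to 4. All FAC libraries lay below all control libraries. The means were 103 ± 5.62 and 89.4 ± 2.48 CPM (SD, n = 4 each), and the log2 change was -0.20 (SE 0.046), with an edgeR adjusted p of 0.0304, or 0.0172 with the replicate block. The mice differed by -0.13, -0.36, -0.20 and -0.12. The call was lost when control mouse 2 (adjusted p = 0.085), control mouse 3 (0.0723), FAC mouse 2 (0.116) or FAC mouse 3 (0.105) was left out. Transcripts of 11 other genes are near-identical to Atp5l, which held 82.1% to 86.8% of the summed counts, and for the sum the change was -0.16 (SE 0.044, edgeR adjusted p = 0.0591, and 0.0276 with the replicate block).

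The promoter of Atp5l is shown because it is the member that was called. It covers 250 bases before and 50 after the start of the gene, on the minus strand of GRCm38.p6 (chr9:44920693-44920992, from RefSeq), with capitals marking 2 matches of the ETS motif CCGGAAG on the opposite strand.

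Atp5l: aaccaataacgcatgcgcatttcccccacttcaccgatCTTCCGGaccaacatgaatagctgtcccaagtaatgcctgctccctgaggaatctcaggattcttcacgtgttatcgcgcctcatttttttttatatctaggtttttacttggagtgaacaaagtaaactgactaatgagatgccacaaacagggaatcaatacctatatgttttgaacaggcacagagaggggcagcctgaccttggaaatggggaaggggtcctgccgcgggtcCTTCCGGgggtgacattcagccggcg

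Factors of the ETS family and NRF1 are textbook regulators of nuclear respiratory genes. Of the 80 nuclear members, 67 matched an entry of the RefSeq promoter table, and 17 of these (25.4%) held the ETS motif on either strand, against 9.93% of all 27025 genes in the table. The NRF1 motif, searched as GCGCA, then any base, then GCGC on both strands, was also found in 17 members (25.4%), against 5.19% of all genes. Both motifs contain CG, and the 27025 genes were not matched to the members by base composition. The Atp5l promoter held no NRF1 match, and a match describes letters only.

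The subunits that hold iron cofactors included none that edgeR called without the replicate block. With the block, edgeR called the haem subunit genes Cycs, lower (adjusted p = 0.0118), and mt-Cytb, higher (adjusted p = 0.0367), and no iron-sulphur subunit. Of all tested genes, 4.07% were called higher and 2.8% lower with the block. The 7 iron-sulphur subunits measured (Ndufs1, Ndufs7, Ndufs8, Ndufv1, Ndufv2, Sdhb and Uqcrfs1) had a median of -0.061, and 3 had an unadjusted p under 0.05, all lower, of which DESeq2 called 1, Uqcrfs1. The 6 haem subunits went both ways: the mitochondrial genes mt-Co1 and mt-Cytb stood at 0.20 and 0.19, and the nuclear genes Cycs, Cyc1, Sdhc and Sdhd at -0.18, -0.11, -0.053 and -0.047. Of these, 2 higher (mt-Co1 and mt-Cytb) and 2 lower (Cycs and Cyc1) had an unadjusted p under 0.05, and DESeq2 called Cyc1 and Cycs. Over all genes, 18.4% of those tested had such a p, and DESeq2 called 5.31%. The 69 nuclear members with neither cofactor had a median of -0.077. The difference between these groups of genes was not tested.

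The 13 mitochondrial members are the protein-coding genes of mitochondrial DNA, transcribed as long precursors and then cut. In their own rows of the count table they varied more than the nuclear members, with a median SE of 0.13. The largest own-row difference was that of mt-Co3, subunit 3 of complex IV, at 24.3, 50.7, 42.1 and 42.5 CPM in control mice 1 to 4 and 138, 115, 22.1 and 97.2 CPM in FAC mice 1 to 4. Its change of 1.21 (SE 0.38) did not pass (edgeR adjusted p = 0.109), and FAC mouse 3 went the other way, with log2 differences of 2.50, 1.18, -0.93 and 1.19 in mice 1 to 4. The largest negative difference was that of mt-Nd3, a complex I subunit, at 42.9, 57, 39.7 and 32.7 CPM in control mice 1 to 4 and 39.6, 35, 26.3 and 9.62 CPM in FAC mice 1 to 4. Its FAC cultures were below their controls in all 4 mice, and the change was -0.63 (SE 0.29, edgeR adjusted p = 0.265). It was called with the replicate block (edgeR adjusted p = 0.0203). Without the filter on low counts edgeR called 736 of all genes, with mt-Co3 (adjusted p = 1.11e-07) and mt-Nd3 (adjusted p = 0.000877) among them. When FAC mouse 3 was left out edgeR called 147 of all genes, with mt-Co3 among them (adjusted p = 0.00091).

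These rows hold only part of the reads of their genes. In the GENCODE M21 transcripts, 5 mitochondrial genes have a copy in the nucleus that is identical or nearly so over almost its whole length, and the authors' counting gave most counts to the copy. The copy of mt-Co3 is Gm28437, which is identical over all 783 aligned bases. The copies of mt-Atp6 (Gm10925), mt-Co2 (Gm28661) and mt-Nd4l (Gm10222) are identical as well, and that of mt-Nd3 (Gm28438) differs at 1 of 345 bases. With copies of mt-Nd4 (Gm28439) and of part of mt-Co1 (Gm29216) they form a row of 7 neighbouring genes on chromosome 1 of GRCm38. The first 60 bases of mt-Co3 and its copy are shown as an identical pair, those of mt-Nd3 and its copy with the substitution T3C in capitals (mitochondrial base first, counted from the first base of the gene), and bases 1063 to 1122 of mt-Co1 with the substitution A1066T.

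mt-Co3: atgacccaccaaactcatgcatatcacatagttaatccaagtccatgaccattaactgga

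Gm28437: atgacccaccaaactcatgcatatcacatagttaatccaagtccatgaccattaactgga

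mt-Nd3: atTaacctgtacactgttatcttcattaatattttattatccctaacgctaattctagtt

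Gm28438: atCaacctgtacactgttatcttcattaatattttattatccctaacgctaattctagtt

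mt-Co1: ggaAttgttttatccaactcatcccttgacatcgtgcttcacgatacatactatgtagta

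Gm29216: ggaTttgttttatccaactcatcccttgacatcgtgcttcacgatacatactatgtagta

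Reads that lie wholly within identical stretches cannot be assigned by sequence. Of the counts of gene and copies together, the mitochondrial row held 0.878% to 2.6% for mt-Co2, 0.991% to 5.44% for mt-Co3, 1.23% to 3.84% for mt-Atp6, 4.9% to 20% for mt-Nd3 and 18.5% to 37.1% for mt-Nd4l across the 8 libraries. For mt-Co1 it held 97.9% to 99.4%, and for mt-Nd2, mt-Nd4 and mt-Nd5 nearly all counts.

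**Figure D3:**
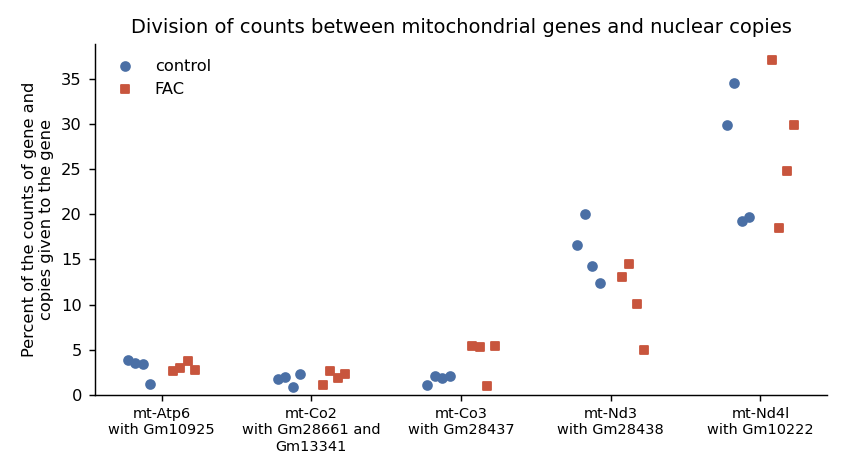
Each point is 1 library (mice 1 to 4 from left to right within a group) and shows the percent of the counts of a mitochondrial gene and its near-identical nuclear copies that the deposited counts give to the mitochondrial gene. All values for mt-Atp6, mt-Co2 and mt-Co3 lie at or below 5.44%, and the 3 high FAC values of mt-Co3 belong to mice 1, 2 and 4.

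When each gene was summed with its copies, the large own-row differences were gone. For mt-Co3 the sums were 2349, 2409, 2242 and 2037 CPM in control mice 1 to 4 and 2534, 2174, 2233 and 1817 CPM in FAC mice 1 to 4, and the log2 change was -0.045 (SE 0.080, edgeR adjusted p = 0.813) in place of 1.21. For mt-Nd3 the sums were 258, 284, 279 and 265 CPM in control and 303, 240.1, 262 and 196 CPM in FAC libraries, with a change of -0.12 (SE 0.094, edgeR adjusted p = 0.551, and 0.298 with the replicate block). FAC mouse 4 was the lowest library of both sums. After summing, the 13 genes ranged from -0.12 (mt-Nd3) to 0.20 (mt-Nd4l) with a median of 0.11. None was called without the replicate block, the smallest edgeR adjusted p being 0.224, and 2 had an unadjusted p under 0.05, mt-Cytb and mt-Co1. With the block edgeR called mt-Cytb and mt-Co1 (adjusted p = 0.0334 and 0.047), beside 968 of all 13352 genes tested.

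**Figure D4:**
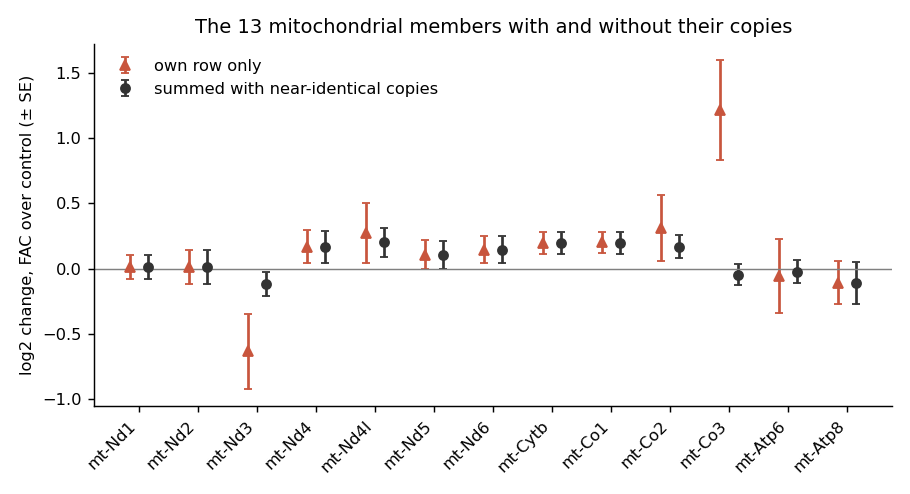
Triangles give the log2 change ± SE of each of the 13 mitochondrial members from its own row, and circles the same after adding the counts of its near-identical copies; genes without copies have the same counts in both. The own-row values of mt-Co3 (1.21) and mt-Nd3 (-0.63) move to -0.045 and -0.12.

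The FAC differences of the mitochondrial genes varied from mouse to mouse. Of the 13 sums, 13, 7, 11 and 1 were higher with FAC in mice 1 to 4, and the medians of the log2 differences were 0.36, 0.0035, 0.19 and -0.23. Together they took 2.04, 2.24, 2.07 and 1.91 percent of all counts in control mice 1 to 4 and 2.57, 2.28, 2.4 and 1.74 percent in FAC mice 1 to 4 (2.06 ± 0.137 and 2.24 ± 0.36, SD, n = 4 each). FAC libraries held both the highest and the lowest share, and the groups overlapped. The gene mt-Cytb, the haem-bearing cytochrome b of complex III, has no near-identical copy here and stood at 1186, 1331, 1167 and 1093 CPM in control mice 1 to 4 and 1524, 1418, 1423 and 1103 CPM in FAC mice 1 to 4. It was higher with FAC in all 4 mice, by 0.36, 0.092, 0.29 and 0.012, but by very little in mouse 4. Its change of 0.19 (SE 0.084) did not pass (edgeR adjusted p = 0.235) and did with the replicate block (edgeR adjusted p = 0.0367). The catalytic complex IV subunit gene mt-Co1 had a similar value, 0.20 (SE 0.083, edgeR adjusted p = 0.214), with an adjusted p of 0.0527 in edgeR with the block.

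Leaving out FAC mouse 4 brought mt-Nd4, mt-Nd5, mt-Cytb and mt-Co1 past the threshold (edgeR adjusted p = 0.0177, 0.0478, 0.0154 and 0.00496). That fit called 549 of all genes, against 438 with all 8 libraries. Leaving out FAC mouse 1 moved the median of the 13 own rows from 0.15 to 0.021. For mt-Nd6, which is encoded on the opposite strand of mitochondrial DNA to the other members, the change was 0.15 (SE 0.10, edgeR adjusted p = 0.497). No source used here states whether counting used strand, so reads from this gene and from transcripts opposite to it may not be separated. The remaining members without a large share of copies were near 0 or had wide intervals: mt-Nd1 at 0.013 (SE 0.094), mt-Nd2 at 0.013 (SE 0.13) and mt-Atp8, an ATP synthase subunit, at -0.11 (SE 0.16).

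**Figure D5:**
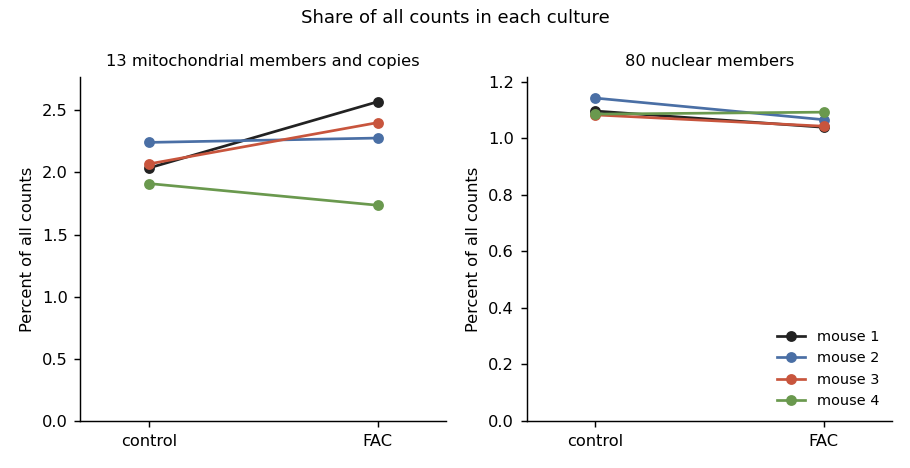
Lines join the control and FAC culture of each mouse; the vertical axes give the percent of all counts taken by the 13 mitochondrial members with their copies (left) and by the 80 nuclear members (right). The mitochondrial share is higher with FAC in mice 1 to 3 and lower in mouse 4, and the nuclear share is lower with FAC in mice 1 to 3 and nearly equal in mouse 4, at 1.09 percent in both cultures.

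Nuclear members have near-identical copies too, and their rows are uncertain to that extent. Atp5g2, a gene for the c-ring of ATP synthase, held 68.1% to 74.4% of the counts of itself and its copies, and Cycs held 73.6% to 78.8%. Ndufb4, a complex I subunit gene near-identical to Ndufb4c, held 32.3% to 41.5%. Summed, Cycs had a change of -0.18 (SE 0.047, edgeR adjusted p = 0.0563), and Ndufb4 one of -0.18 (SE 0.057, edgeR adjusted p = 0.109). With all members summed with their copies, none was called without the replicate block and 5 with it, Atp5l, Cycs and Uqcrfs1 lower and mt-Cytb and mt-Co1 higher. Of all 13352 genes tested there, 451 were called without the block and 968 with it. The 5 members with pseudogene names all lay below 0, none called by edgeR or DESeq2 and none with an unadjusted p under 0.05, the most abundant being Ndufa12-ps at 17.2 ± 0.993 CPM in controls (SD, n = 4).

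Other genes of the pathway were read from lists. Of the assembly factors of complexes II to V, 3 of 33 tested were called, all lower, beside 1.1% of all tested genes called lower and 3.27% called in either direction. DESeq2 called the same 3, beside 2.15% of genes called lower. None of 17 complex I assembly factors was called by either tool, and 2 had an unadjusted p under 0.05, beside 18.4% of all tested genes. Hccs, the enzyme that attaches haem to cytochromes c and c1, fell: it stood at 77.7 ± 2.75 CPM in control and 67.4 ± 3.61 CPM in FAC libraries (SD, n = 4 each), a log2 change of -0.21 (SE 0.049, edgeR adjusted p = 0.0366). Cox11, a copper chaperone of complex IV, stood at 20.5, 18.8, 19.9 and 19.4 CPM in control mice 1 to 4 and 15.7, 16.9, 16.4 and 16.3 CPM in FAC mice 1 to 4. It fell by 0.27 (SE 0.063) on the log2 scale (edgeR adjusted p = 0.038). Cox17, which hands copper on to the chaperones of complex IV, also fell: it stood at 43.8 ± 2.56 CPM in control and 37.8 ± 1.03 CPM in FAC libraries (SD, n = 4 each), a change of -0.21 (SE 0.053, edgeR adjusted p = 0.0443). In these 3 genes no FAC library reached the control range and the FAC culture was lower in all 4 mice. The calls came from the same 8 libraries, so this separation adds no support of its own. Each call was lost on leaving out most single libraries: of 8 such fits, Hccs kept it in 2, without control mouse 4 or FAC mouse 1, and Cox11 and Cox17 in 1 each, without FAC mouse 4. The highest adjusted p among these fits was 0.135 for Hccs, 0.11 for Cox11 and 0.14 for Cox17.

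None of 31 tested genes for the expression of mitochondrial DNA was called by edgeR or DESeq2. Of these 31 genes, 3 had an unadjusted p under 0.05, beside 18.4% of all tested genes. That share also stands beside the counts of such p in the lists below. In the list for mitochondrial DNA, the changes were small. With the replicate block 1 was called, Trmt10c, a subunit of mitochondrial RNase P, at -0.15 (SE 0.077, edgeR adjusted p = 0.316) without the block and with an edgeR adjusted p of 0.0498 with it. The median of the 31 genes was -0.019. None of 9 tested nuclear regulators of respiratory genes was called by either tool (median 0.0033), and 3 had an unadjusted p under 0.05. Of 15 tested genes for other routes of electron entry and for ADP/ATP exchange edgeR called none, 3 had an unadjusted p under 0.05, and Slc25a4, an ADP/ATP carrier, came closest. It stood at 177, 171, 167 and 176 CPM in control mice 1 to 4 and 160.3, 152, 150.5 and 161 CPM in FAC mice 1 to 4, without overlap, and its change of -0.15 (SE 0.038) missed the threshold without the block (edgeR adjusted p = 0.0553) and passed with it (0.0145) and in DESeq2 (adjusted p = 0.00885). Respiratory chain genes that the naming pattern misses had a median of -0.081 over 6 tested genes. Neither tool called any of them, and 1 had an unadjusted p under 0.05. They include the complex I subunit gene Ndufab1 at -0.10 (SE 0.042) and the complex IV subunit gene Cox4i1 at -0.079 (SE 0.038).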

How the data were processed

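RNA sequencing libraries of 4 control and 4 FAC cultures were compared. Libraries were made with a stranded kit for mRNA from 250 ng of RNA, per the labels' protocols. GRCm39 is the genome build in the submitters' processing notes, and the tools listed there, without their roles, are RSEM 1.3.1, STAR 2.7.6a, DESeq2 1.26.0, DESeq, FastQC and R 3.6.3. The sources used here give neither the annotation release nor the strand setting of the counting.

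RSEM gene results were deposited by the authors, per the file headers: expected counts (estimated reads per gene, not scaled between libraries), TPM values (scaled for length and to a fixed total) and an effective length in bases, another quantity used only as an offset. The authors also deposited a table of normalised signal for 13751 of 57010 genes, with a scaling that the sources used here do not give. It supplied the symbols that chose the members.

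Expected counts were rounded and tested with edgeR 4.0.16 (R 4.3.3): expression filter (minimum count 10, minimum total 15), TMM factors, quasi-likelihood fit on the group, and Benjamini-Hochberg adjustment over 13378 genes, called under 0.05. The tested genes held 99.9% of counts. The SE of a log2 change is its size over the square root of the F statistic. The procedure was run on simulated counts without pairing and with changes larger than most of those reported here. That run does not bear on differences as small as these. Alternatives were DESeq2 1.42.0, limma 3.58.1 on log2(TPM + 1) and on log2(deposited signal + 1), the effective length as offset, no filter, mitochondrial genes left out of totals, library totals only, each library left out, and the mouse as a replicate block. The labels give each mouse 1 control and 1 FAC culture, so mouse numbers pair the cultures. Between the cultures of a mouse, deviations from the group mean correlated with r = 0.119, 0.00603, 0.0361 and 0.122 for mice 1 to 4 across 13378 genes.

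Near-identical copies were sought with BLAST+ 2.17.0 among GENCODE M21 transcripts (build GRCm38, not the authors' build): at least 95% identity over at least 100 bases and 80% of the copy. Sums with copies, and the block with 1 mouse left out, are alternatives chosen after seeing the data. Gene symbols of copies and promoters come from that earlier build, so no other coordinates are printed.

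The members and gene lists were chosen with earlier results of these data known, so no p-value is given over the members alone. Named genes are called members, mitochondrial members, iron-sulphur and haem subunits, Ndufs1, Uqcrfs1 and mt-Cytb, the largest rise and fall of each complex among nuclear members whose mean log2 CPM reached 1, and called genes of other lists; other names were added after their values were seen. Reads carry no molecular identifiers.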

Additional observations from a re-analysis of the deposited data

Results flagged for a closer look

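The summed nuclear level of complex III in FAC mouse 4 stood apart from the other FAC libraries. It was 2739 TPM, while the other 3 lay between 2558 and 2585 TPM, a gap of 0.852 of the whole range of the group. It was the only one of 92 groups of 4 libraries checked that met this criterion, and chance alone flags about 1 in 20 such groups. The cause was not tested.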

How the results depend on the processing

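The number of genes called, 438, moved to 738 with DESeq2, 736 without the filter on low counts, 144 and 156 with limma on TPM and on the deposited signal, and 187 with the effective length as offset. It was 919 with the replicate block and 968 with the block and members summed with their copies. It ranged from 147 to 549 when 1 library was left out (188, 209 and 247 without control mice 1, 2 and 3, 168 and 147 without FAC mice 2 and 3), and from 165 to 1217 when the block was fitted without 1 mouse. The number of members called, 1, moved to 5 with DESeq2, 7 without the filter, 0 with limma on TPM and 0 when members were summed with their copies. Under the pairing by mouse it was 4 with the block and 5 with the block and summed copies. It ranged from 0 to 6 when 1 library was left out: 0 without control mouse 2 or 3 or FAC mouse 2, 2 without FAC mouse 1 and 6 without FAC mouse 4. Of all genes, 549 were called without FAC mouse 1 and 549 without FAC mouse 4. The 1 call without FAC mouse 3 was mt-Co3 and that with limma on the deposited signal was Cox7c, not Atp5l. The count of members went from 1 to 16 when the block was fitted without 1 mouse. The most were called without mouse 4, in the fit that called 1217 of all genes. Apart from the fits with fewer libraries, the cause was not tested. The median change of nuclear members stayed below 0 under every alternative run (-0.045 to -0.11) and that of mitochondrial members above 0 (0.021 to 0.26). No named gene called in the main fit, on the group alone with the filter and all 8 libraries, changed sign. Some genes called only in other fits did. mt-Co3, called without the filter or without FAC mouse 3, went from 1.21 to -0.045 when summed with its copies. mt-Nd5, called without FAC mouse 4, went from 0.11 to -0.0078 in the block fit without mouse 1. Reads shared with copies limit the single mitochondrial rows. At the lowest level among nuclear members, 0.335 CPM in controls, Cox6b2 had an SE of 0.38, against a nuclear median of 0.049.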
